A study of Mus musculus with 19 samples.

Results

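Ifit1, Ifit2, Ifit3, Ifit3b and Isg15 are interferon-induced genes whose transcripts were measured here in hepatocytes of young and old mice. The 5 genes were taken by symbol from the deposited count table, where all 5 were found among 24537 genes, and all 5 passed the filter on low counts. Poly(A) RNA had been sequenced from hepatocytes, the metabolic cells of the liver, of 19 male wild-type (WT) C57BL/6J mice. The labels give 10 libraries at 5 months of age and 9 at 24 months, called young and old below. On the first cull day 5 young and 5 old mice were killed, and on the second, 23 days later, 5 young and 4 old. By the birth and cull dates given, young mice were 140 days old on the first day and 163 on the second. Old mice were 719 and 742 days old, so cull day and this difference in age cannot be told apart. All libraries share the genotype, the strain and the sex, and the labels name no treatment. Each library carries its own number in the labels and was taken as 1 mouse. If libraries shared an animal, the p-values below would measure technical spread only.

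Type I and type III interferons bind receptors that signal through the kinases JAK1 and TYK2 to the transcription factor complex ISGF3, which binds interferon-stimulated response elements in promoters. The Ifit genes and Isg15 are among its classic targets and are transcribed at low levels until a cell senses interferon or viral RNA. IFIT proteins are built of tetratricopeptide repeats and bind viral RNA that lacks the methyl marks of host caps, which keeps it from being translated. ISG15 is a ubiquitin-like protein that is attached to other proteins or released from the cell. In the liver, hepatocytes, macrophages and endothelial cells can all express these genes.

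Totals over genes ran from 17381439 to 19583060 counts in young and from 18156240 to 20287628 in old libraries. The 10 hepatocyte markers summed to 100252 to 202835 CPM, counts scaled to each library's size with edgeR's trimmed mean of M-values. Hepatocyte transcripts were thus abundant in every library, which does not measure how pure the preparations were. Markers of other liver cells were also present. Old mouse 1187 stood apart, with a sum over 14 Kupffer cell and macrophage markers of 4000 CPM. The same sum ran from 96.8 to 949 CPM over its fellow old mice. Young mice 1184, 1186 and 1188 had the lowest hepatocyte marker sums of all 19 libraries, 100252 to 101374 CPM. The age comparison of the 5 members is given with and without these mice.

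The Ifit genes lie side by side within 99.3 kb of chromosome 19 (mm10), all on the plus strand. In order they are Ifit2 at chr19:34550694-34576534, Ifit3 at chr19:34583529-34588982, Ifit3b at chr19:34607957-34613401 and Ifit1 at chr19:34640889-34650009. Isg15 is at chr4:156199424-156200818 on the minus strand. No other GENCODE M21 gene overlaps any of the 5. The deposited table lists 1 RefSeq transcript per gene.

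Upstream sequence was available for all 5 genes (RefSeq, GRCm38.p6), and the core of the interferon-stimulated response element, GAAANNGAAA or TTTCNNTTTC on the other strand, was searched in the 250 bases before each start. Of all 32851 windows of this length, 978 (2.98%) hold such a match. Among the members 4 of 5 do: Ifit1, Ifit3 and Ifit3b hold 2 matches each and Isg15 holds 3 that overlap. They are printed below because these genes moved together. Each runs 5′ to 3′ on the gene's strand and ends at the base before the start, and capitals mark the matches.
Ifit1: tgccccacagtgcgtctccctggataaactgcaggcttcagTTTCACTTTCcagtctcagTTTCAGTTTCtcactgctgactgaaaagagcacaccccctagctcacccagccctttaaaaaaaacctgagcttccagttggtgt
Ifit3: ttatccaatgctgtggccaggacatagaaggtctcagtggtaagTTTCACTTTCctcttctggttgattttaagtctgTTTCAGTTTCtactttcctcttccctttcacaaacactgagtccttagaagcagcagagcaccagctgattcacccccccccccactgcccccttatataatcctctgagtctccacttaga
Ifit3b: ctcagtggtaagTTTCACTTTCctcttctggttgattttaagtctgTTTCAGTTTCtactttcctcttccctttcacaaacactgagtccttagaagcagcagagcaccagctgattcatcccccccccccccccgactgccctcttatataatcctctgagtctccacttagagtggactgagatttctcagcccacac
Isg15: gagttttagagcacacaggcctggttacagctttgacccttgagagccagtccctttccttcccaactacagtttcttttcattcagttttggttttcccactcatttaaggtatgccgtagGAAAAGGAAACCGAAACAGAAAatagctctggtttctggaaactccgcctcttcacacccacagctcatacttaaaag
The stretches are chr19:34640744-34640888 for Ifit1, chr19:34583329-34583528 for Ifit3, chr19:34607757-34607956 for Ifit3b and chr4:156200819-156201018 for Isg15, which is read on the minus strand. Ifit1, Ifit3 and Ifit3b carry the same pair of matches, TTTCACTTTC and then TTTCAGTTTC. The second ends 76 bases before the start in Ifit1, 113 bases before it in Ifit3 and 145 bases before it in Ifit3b. In Isg15 the 3 matches GAAAAGGAAA, GAAACCGAAA and GAAACAGAAA overlap to form 1 run, which starts 78 bases before the start. For Ifit2 neither of its 2 annotated windows held these letters. A match describes the letters only, and binding was not measured.

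Compared per length, the order of expression was the same in all 19 libraries: Isg15, Ifit3, Ifit1, Ifit3b, Ifit2. In young mice Isg15 averaged 8.50 ± 2.42 CPM per kb (SD, n = 10), Ifit3 averaged 3.84 ± 0.90, Ifit1 averaged 1.71 ± 0.44, Ifit3b averaged 1.24 ± 0.25 and Ifit2 averaged 0.57 ± 0.27 CPM per kb (SD, n = 10). Old mice averaged 14.9 ± 9.84 CPM per kb for Isg15 and 1.59 ± 2.06 for Ifit2 (SD, n = 9), the ends of the same order. Without mouse 1187 these means were 11.8 ± 3.07 and 0.91 ± 0.26 CPM per kb (SD, n = 8). The closest neighbours were Ifit1 and Ifit3b, whose ratio within a library ran from 1.02 to 2.12, with a median of 1.32. Of the stretches of read length in the Ifit3b transcript, 27.4% also occur in Ifit3. How reads from there were assigned is not given in the sources used here. The place of Ifit3b below Ifit1 may depend on that assignment, which was not tested. All 5 were detected in young hepatocyte preparations, with 20.5 counts (Ifit2) to 174.5 counts (Ifit3) per young library.

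The design asks whether these transcripts differed between old and young mice. All 5 were higher in old mice in edgeR's quasi-likelihood test, which held cull day as a term and adjusted p over 12269 genes (Benjamini-Hochberg). Of all genes tested, 30.9% passed the adjusted threshold of 0.05, 16.3% as higher and 14.5% as lower in old mice. With scaling by library totals alone, 2098 genes were higher and 1172 lower, against 2005 and 1780. All 5 members also passed in DESeq2, where 15.9% of genes were higher, and in limma-voom, where 16.9% were. The limma-voom log2 fold changes, with sample weights, were smaller: 0.53 for Ifit1, 0.92 for Ifit2, 0.81 for Ifit3, 0.62 for Ifit3b and 0.57 for Isg15. The median log2 fold change of the 5 was 0.96, against -0.003 over all genes tested. By rank of p they stood between 1751 and 3026 among the 12269 genes, in the range of many other genes that passed.

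Ifit3, which encodes a further member of the IFIT family, had the smallest p of the 5. Its level was 4.22 CPM in the lowest young mouse, 8.10 CPM at the median and 9.56 CPM in the highest, against 7.90, 12.9 and 53.2 CPM in old mice. Of the 9 old mice 7 were above every young mouse and the other 2 lay within the young range. The log2 fold change was 1.12 (SE 0.30, edgeR adjusted p = 0.0109).

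Ifit2, an IFIT protein that pairs with other family members and binds AU-rich RNA, had the largest fold change of the 5. Young mice ran from 1.15 CPM through a median of 1.97 to 4.92 CPM, and old mice from 1.87 CPM through 3.97 to 27.8 CPM. Only 2 of 9 old mice exceeded all young mice. Of these, mouse 1240 did so by a hair, at 4.919 CPM against 4.918 CPM in young mouse 1184. Its log2 fold change was 1.38 (SE 0.41, edgeR adjusted p = 0.0176).

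Ifit3b, the near-identical copy of Ifit3, ran from 1.92 CPM through a median of 2.47 to 3.47 CPM in young mice and from 2.21 CPM through 3.95 to 15.8 CPM in old mice. Here 5 of the 9 old animals exceeded every young one. The log2 fold change was 0.96 (SE 0.30, edgeR adjusted p = 0.0213).

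Ifit1, the family member that binds RNA with an unmethylated cap, was at 2.98 CPM in the lowest young mouse, 4.40 CPM at the median and 6.28 CPM in the highest. In old mice the same values were 4.47, 5.74 and 22.8 CPM, and 3 of 9 exceeded every young mouse. The log2 fold change was 0.77 (SE 0.26, edgeR adjusted p = 0.0282).

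Isg15 ran from 4.18 CPM through a median of 6.13 to 9.49 CPM in young mice and from 5.40 CPM through 9.04 to 30.1 CPM in old mice. Old and young mice overlapped widely, with 3 of 9 old mice above all young mice. The log2 fold change was 0.81 (SE 0.27, edgeR adjusted p = 0.0291).

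**Figure D1:**
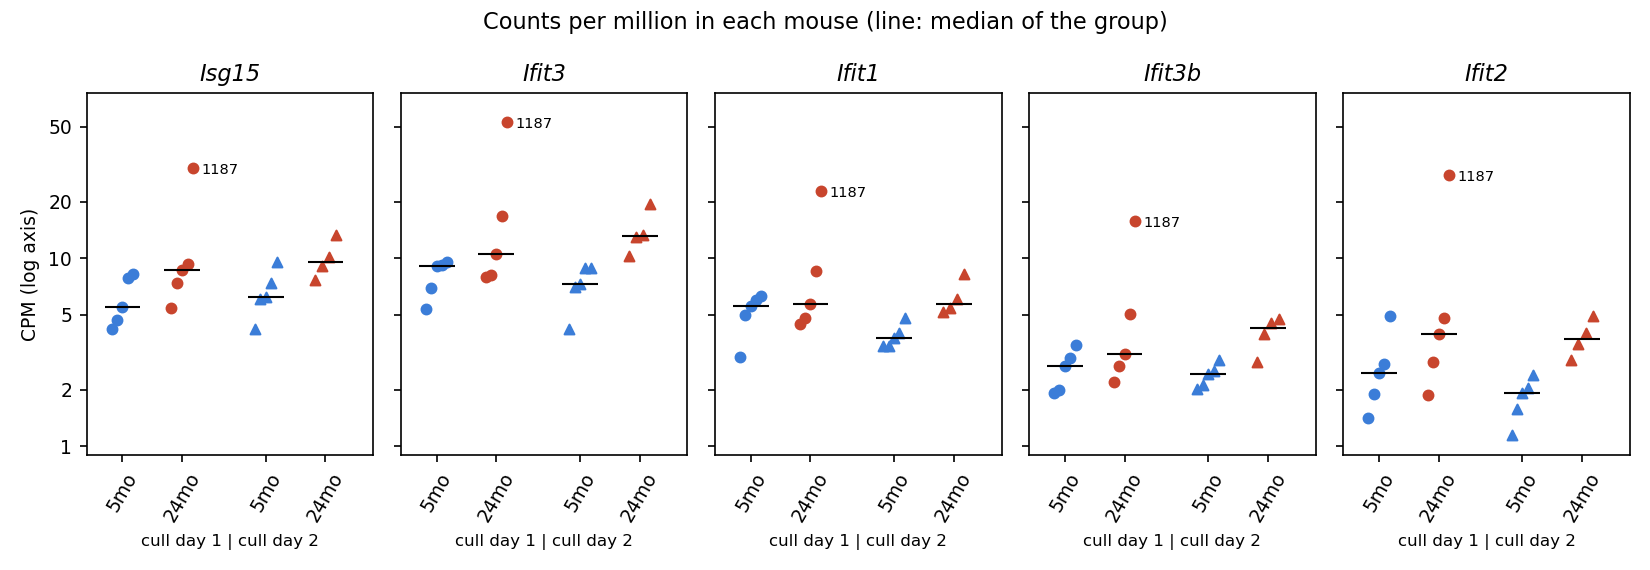
CPM of the 5 genes on a log axis, 1 point per mouse, young (5mo) blue and old (24mo) red, circles for the first cull day and triangles for the second, with a line at each group's median. Old mouse 1187 is the highest point for every gene, at 15.8 to 53.2 CPM, and on the second cull day the old mice lie above the young mice for Ifit1, Ifit2 and Ifit3.

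Exact tests of single genes used all 31752 relabellings that keep the cull days intact. They gave two-sided exact permutation p-values of 0.00180 for Ifit3, 0.00674 for Ifit3b, 0.00759 for Ifit2, 0.0101 for Isg15 and 0.0114 for Ifit1, unadjusted and on log2 CPM with a prior count of 2. Complete separation of old above young was seen for none of the 5 genes and for 0.978% of genes tested.

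Old mouse 1187 was the highest of all 19 mice for each of the 5 genes. Its Ifit2 count was 638, against 100 at most in the others, and its Ifit2 CPM was 5.66-fold that of the next old mouse. The same ratio was 3.11 for Ifit3b, 2.73 for Ifit3, 2.67 for Ifit1 and 2.26 for Isg15. Without this mouse the log2 fold changes fell to 0.69 for Ifit2 (SE 0.24, edgeR adjusted p = 0.0411), 0.69 for Ifit3 (SE 0.18, adjusted p = 0.0116) and 0.53 for Ifit3b (SE 0.17, adjusted p = 0.0314). Ifit1 then had 0.43 (SE 0.16, edgeR adjusted p = 0.0588) and Isg15 0.46 (SE 0.17, adjusted p = 0.0529), neither past the threshold. So 3 of the 5 genes passed without mouse 1187, where 12.4% of all genes tested passed as higher. Isg15 also missed the threshold without old mouse 1240 (edgeR adjusted p = 0.0560) or young mouse 1180 (adjusted p = 0.0528), and Ifit1 without old mouse 1240 (adjusted p = 0.0567).

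Cull days were then taken one at a time. On the second day the 4 old mice had 10.2, 12.9, 13.3 and 19.5 CPM of Ifit3, and the 5 young mice had 4.22, 7.04, 7.32, 8.87 and 8.92 CPM. The groups did not overlap. They did not overlap for Ifit1 (5.15 to 8.24 CPM in old, 3.41 to 4.78 CPM in young) or Ifit2 (2.87 to 4.92 against 1.15 to 2.39 CPM) either. Such separation held for 10.8% of all genes tested on that day. Ifit3b overlapped by 1 old mouse, which at 2.82 CPM lay below the highest young mouse at 2.86 CPM. Isg15 ran from 7.69 to 13.3 CPM in old mice and from 4.22 to 9.49 CPM in young mice. The 4 Ifit genes passed on the second day alone, where 12.2% of genes passed as higher: log2 fold changes were 1.08 for Ifit2 (SE 0.23), 0.94 for Ifit3 (SE 0.22), 0.75 for Ifit3b (SE 0.18) and 0.69 for Ifit1 (SE 0.17), with edgeR adjusted p-values from 0.00620 to 0.0155. Isg15 had 0.59 (SE 0.21, edgeR adjusted p = 0.0691).

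On the first day the estimates were larger and much less certain, from 0.84 for Ifit1 (SE 0.44) to 1.61 for Ifit2 (SE 0.71). None of the 5 passed there in edgeR (adjusted p from 0.150 to 0.241), where 1.88% of genes passed as higher. At an unadjusted p under 0.05, 4 of the 5 were higher in old mice, and so were 14.1% of all genes tested. DESeq2 and limma-voom were not run on single days. Complete separation held for 0 of the 5 on that day, and for 3.92% of genes. Apart from mouse 1187, the old mice of that day had 7.90, 8.18, 10.5 and 16.8 CPM of Ifit3, against 5.38 to 9.56 CPM in young mice. An age by cull day interaction did not pass for any of the 5 in edgeR (adjusted p from 0.940 to 0.977, unadjusted p under 0.05 for 0 of 5) or in limma-voom (adjusted p from 0.408 to 0.560). Its sign was negative for all 5 genes in edgeR, positive for all 5 in limma-voom, and positive in edgeR without mouse 1187.

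**Figure D2:**
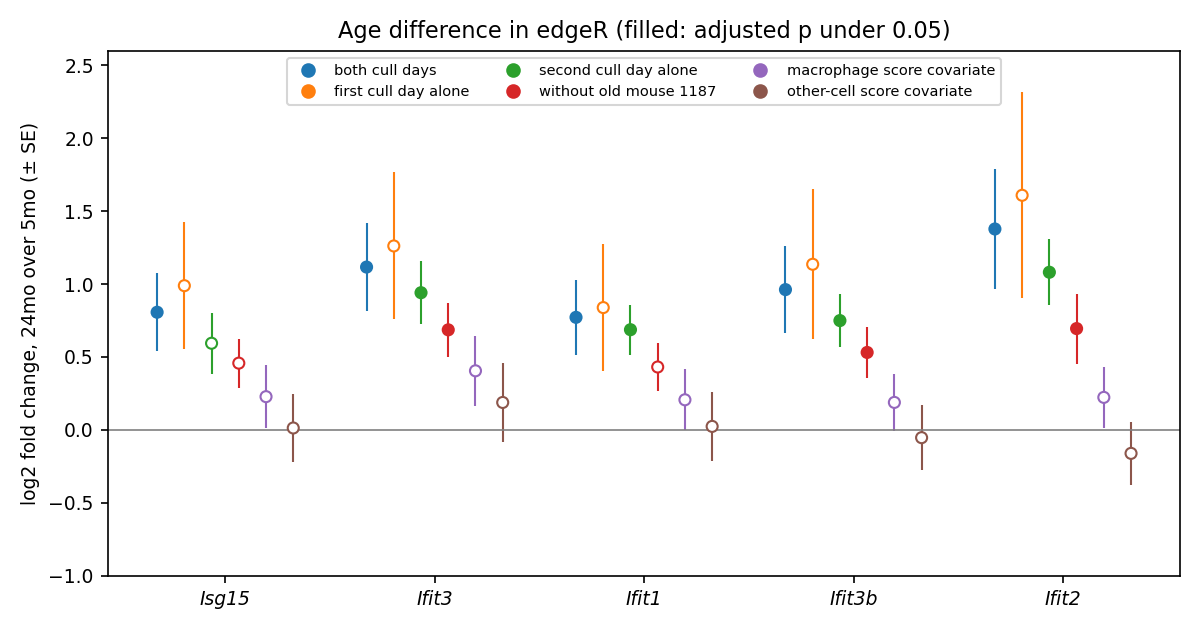
Log2 fold change of old over young with its standard error for each gene in edgeR, from both cull days, each day alone, all mice but 1187, and with a macrophage or other-cell marker score as a covariate. Filled points have an adjusted p under 0.05. Each gene is above 0 without mouse 1187, with 3 of 5 filled, and none is filled with either score as a covariate.

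Young mice 1184, 1186 and 1188 were not uniformly high or low. Mouse 1186 had the lowest Ifit1 (2.98 CPM) and Ifit3b (1.92 CPM) of all 19 mice, whereas 1184 had the highest Ifit2 and Ifit3b of the young. Without these 3 mice 2 of 5 genes passed, where 14.6% of genes were higher: Ifit2 at 1.53 (SE 0.53, edgeR adjusted p = 0.0422) and Ifit3 at 1.06 (SE 0.37, adjusted p = 0.0444). The other 3 had log2 fold changes of 0.73 to 0.96 and adjusted p-values of 0.0639 to 0.0805. Without these 3 and mouse 1187 together, a combination chosen after the data had been seen, all 5 passed, where 15.7% of genes were higher, with log2 fold changes from 0.48 for Ifit1 to 1.05 for Ifit2 (edgeR adjusted p from 0.00178 to 0.0376).

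The sizes of the 5 age differences were compared through the log2 ratio of each pair of genes within a mouse, 10 pairs in all, chosen after the values had been seen. None passed when adjusted over the 10 pairs. The smallest unadjusted p belonged to Ifit1 against Ifit3, with a log2 ratio that differed by -0.28 (exact permutation p = 0.0296, and 0.199 after adjustment). The Ifit1 to Ifit3 count ratio was 0.61 ± 0.15 in the young (SD, n = 10) against 0.49 ± 0.07 in the old (SD, n = 9). The largest difference was that of Ifit1 against Ifit2, at -0.39 (exact permutation p = 0.0955, and 0.199 after adjustment). That Ifit2 changed more than Ifit1 was therefore not shown.

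Across mice the 5 genes moved together. Over 19 libraries, which share the same table and scaling, Spearman's rho between pairs of genes ran from 0.60 (Ifit1 and Isg15) to 0.95 (Ifit3 and Ifit3b). Within young mice rho was 0.31 for Ifit1 and Isg15, 0.32 for Ifit1 and Ifit2 and 0.88 for Ifit3 and Ifit3b. Within old mice the Ifit pairs ran from 0.92 to 0.98 and the pairs with Isg15 from 0.53 to 0.62. These are descriptions over few mice.

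The high value for Ifit3 and Ifit3b has to be read with their sequences. Their GENCODE M21 transcripts are identical at 98.0% of aligned bases, and 521 stretches of 100 bases, the read length in the labels, occur in both. That is 31.7% of such stretches in Ifit3 and 27.4% in Ifit3b. Reads from there could have come from either gene, and how the authors assigned them is not given in the sources used here. The 2 upstream windows also align closely, with 216 identical bases and 2 mismatches. The Ifit3 to Ifit3b count ratio was 3.06 ± 0.45 in the young (SD, n = 10) against 3.41 ± 0.38 in the old (SD, n = 9). With the counts of both summed, the log2 fold change was 1.08 (edgeR adjusted p = 0.0116). Ifit1 shares 3.29% of its stretches with Ifit1bl2, and Ifit2 and Isg15 share none with any other transcript.

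A further pair of Ifit-like genes lies in the same cluster on the minus strand, with few counts. Ifit1bl1 at chr19:34592888-34601968 had 0 to 6 counts in 18 libraries and 64.5 counts in mouse 1187. Ifit1bl2 at chr19:34617051-34640743 had 0 to 3 counts in 18 libraries and 8.5 counts in mouse 1187. Neither passed the filter. In the edgeR fit with no filter on low counts, Ifit1bl1 had a log2 fold change of 1.39 (SE 0.71, adjusted p = 0.158) and Ifit1bl2 had 0.80 (SE 0.72, adjusted p = 0.422). The counted transcripts of Ifit1bl2 and Ifit1 start back to back, with 145 bases between them, so both response element matches of Ifit1 also lie upstream of Ifit1bl2. Ifit1 had 53.5 to 522.5 counts in the same libraries.

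None of the nearest tested genes outside the cluster passed. Log2 fold changes were 0.22 for Lipa, which encodes lysosomal acid lipase (SE 0.13, edgeR adjusted p = 0.211), and 0.04 for Slc16a12, a creatine transporter gene (SE 0.13, adjusted p = 0.844). Fas, the death receptor gene, had 0.22 (SE 0.14, edgeR adjusted p = 0.251) and Pank1, a pantothenate kinase gene, had -0.23 (SE 0.12, adjusted p = 0.135). Next to Isg15, Agrn (agrin) had 0.10 (SE 0.09, edgeR adjusted p = 0.441) at a distance of 1936 bases, AW011738 had 0.20 (SE 0.20, adjusted p = 0.464), Klhl17 had 0.18 (SE 0.16, adjusted p = 0.410) and 9430015G10Rik had 0.28 (SE 0.16, adjusted p = 0.206). Of these 8 neighbours 0 passed in edgeR, DESeq2 or limma-voom, and 0 had an unadjusted edgeR p under 0.05.

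**Figure D3:**
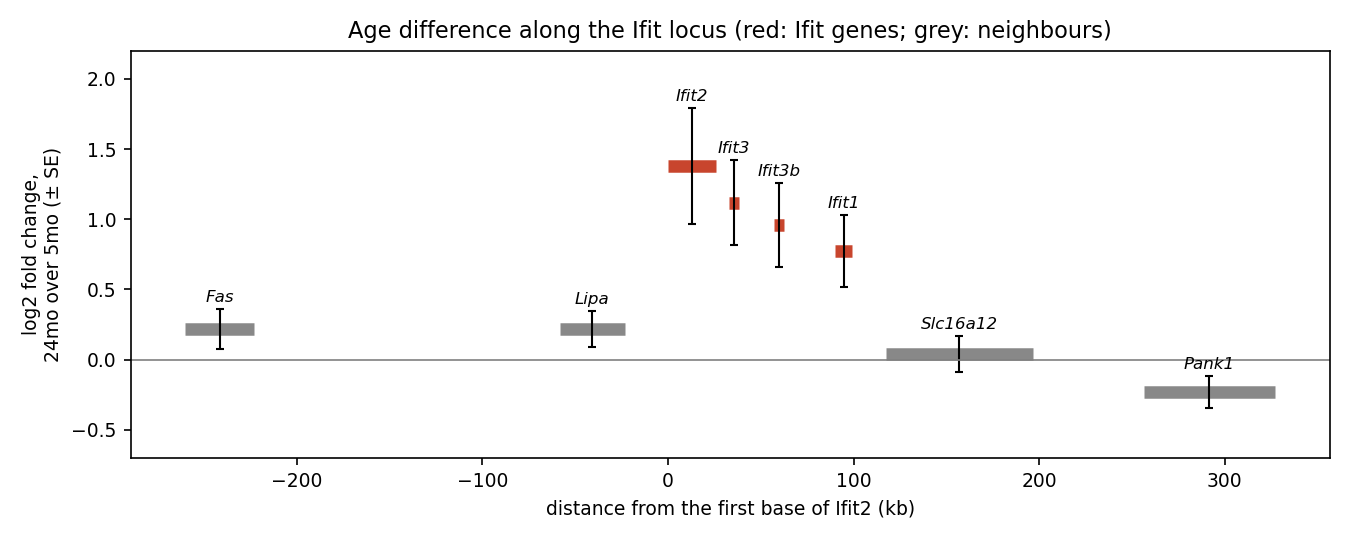
Log2 fold change of old over young with its standard error (edgeR) against position along the Ifit locus, in kb from the first base of Ifit2, with the width of each bar the length of the gene. The 4 Ifit genes in red lie at 0.77 to 1.38 and the 2 nearest tested genes on each side in grey lie at -0.23 to 0.22.

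The rest of the pathway was counted in lists that were chosen with earlier results of these data known. Their counts are descriptions, set beside the same background of 16.3% of genes higher and 14.5% lower unless another is given. Of 21 interferon ligand genes (type I, II and III) 0 passed the filter and 17 had no count in any library, Ifnb1 among them. Ifng had 4 counts over all libraries, 2 of them in mouse 1187. Ifnk had 2 counts, Ifnz had 1 and Ifna2 had 0.5. Transcripts of the other 17 were not detectable at this depth, and interferon made elsewhere in the body was not measured.

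Among 11 tested genes for interferon receptors and ISGF3, 5 were higher and 0 lower in old mice, with a median log2 fold change of 0.20. Ifngr1, a chain of the interferon gamma receptor, rose by 0.67 (SE 0.15, edgeR adjusted p = 0.00399). Il10rb, which is shared by the type III interferon and interleukin receptors, rose by 1.11 (SE 0.27, edgeR adjusted p = 0.00527). Irf9, the DNA-binding subunit of ISGF3, rose by 0.34 (SE 0.09, edgeR adjusted p = 0.00997). The other 2 were Stat2 at 0.29 (edgeR adjusted p = 0.0499) and Ifnar1 at 0.18 (adjusted p = 0.0251). The count of 5 was 4 in DESeq2, in limma-voom and without mouse 1187, where 15.9%, 16.9% and 12.4% of all genes were higher. With no filter on low counts it was 3 (13.3% of all genes higher). On the first cull day alone it was 0 (1.88%) and on the second 3 (12.2%).

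Of 6 other interferon regulatory factors 1 passed: Irf7, which is itself induced by interferon and drives type I interferon genes, rose by 1.20 (SE 0.25, edgeR adjusted p = 0.00227). Irf8, a factor of myeloid cells, had 1.04 (SE 0.40, edgeR adjusted p = 0.0532), and 0.45 without mouse 1187 (adjusted p = 0.240). Irf8 passed in DESeq2 (adjusted p = 0.0292). Irf1 had 0.49 (SE 0.19, edgeR adjusted p = 0.0633), and 0.72 without young mice 1184, 1186 and 1188 (adjusted p = 0.0264). Without mouse 1187 Irf1 had 0.33 (edgeR adjusted p = 0.162). Of 8 tested nucleic acid sensors and adaptors 5 were higher and 1 lower. Without mouse 1187 these counts were 4 and 1, where 12.4% of all genes tested were higher and 12.1% lower. Zbp1, a sensor of Z-form nucleic acids, rose by 1.49 (SE 0.37, edgeR adjusted p = 0.00589). Tmem173, which encodes the adaptor STING, rose by 1.83 (SE 0.51, edgeR adjusted p = 0.0126), with 15.8 CPM in mouse 1187 against 2.19 CPM at most in the other old mice. Without that mouse it was 0.90 (edgeR adjusted p = 0.0294). Mavs, the mitochondrial adaptor of the RNA sensors, fell by 0.25 on the log2 scale (SE 0.06, edgeR adjusted p = 0.00727), and 7 of 9 old mice were lower than every young mouse. Mavs did not pass on the first (-0.26, edgeR adjusted p = 0.148) or the second cull day alone (-0.24, adjusted p = 0.0898). With the other-cell marker score, defined below, as a covariate it had -0.19 (edgeR adjusted p = 0.125).

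Of 5 genes for the conjugation and removal of ISG15, 2 were higher and 0 lower, 1 that attaches it and 1 that removes it. Uba7, the activating enzyme, rose by 0.86 (SE 0.22, edgeR adjusted p = 0.00727). It averaged 5.91 ± 1.87 CPM in the young (SD, n = 10) against 10.8 ± 5.05 CPM in the old (SD, n = 9). Usp18, which removes ISG15 and also dampens the type I receptor, rose by 0.99 (SE 0.25, edgeR adjusted p = 0.00625). It averaged 5.05 ± 1.98 CPM in the young (SD, n = 10) against 10.4 ± 6.43 CPM in the old (SD, n = 9). Both still passed without mouse 1187. Ube2l6, the conjugating enzyme, averaged 62.8 ± 9.12 CPM in young and 72.2 ± 14.5 CPM in old mice and did not pass (log2 fold change 0.19, SE 0.11, edgeR adjusted p = 0.176).

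Among 28 tested genes of a list of other antiviral interferon-induced genes, 20 were higher and 0 lower in old mice, with a median log2 fold change of 0.95, close to the 0.96 of the 5 members. Ifi27, a mitochondrial interferon-induced gene, rose by 1.09 (SE 0.14, edgeR adjusted p = 5.32e-05). Its 9 old values all exceeded the young ones, unlike those of any member. Ifi44 rose by 1.83 (SE 0.38, edgeR adjusted p = 0.00208) and Xaf1, a pro-apoptotic factor, by 1.29 (SE 0.27, adjusted p = 0.00215). Without mouse 1187, where 12.4% of all genes tested were higher, the count was 15 genes and the median 0.61. On the first cull day alone it was 1 gene, where 1.88% of all genes were higher, and on the second 21 genes, where 12.2% were. The sensor, ISG15 conjugation, regulatory factor and negative regulator lists had 0 genes higher on the first day, and 4, 3, 2 and 2 on the second. With the other-cell marker score (markers of other liver cells, defined with the marker results) as a covariate it was 1 gene, with a median of 0.034, where 6.46% of all genes were higher. In that fit 0 genes of the receptor, regulatory factor, sensor, ISG15 conjugation and negative regulator lists were higher. With the macrophage score, where 9.23% of all genes were higher, the counts were 4 antiviral genes, 2 receptor genes, 1 regulatory factor and 0 in the other 3 lists. Of 7 tested negative regulators 2 were higher, Usp18 and Pias1, a SUMO ligase gene (0.28, SE 0.09, edgeR adjusted p = 0.0251). Pias1 did not pass without mouse 1187 (edgeR adjusted p = 0.0501) or without young mice 1184, 1186 and 1188 (adjusted p = 0.0739). Isg20, an RNA exonuclease, had 0.55 (SE 0.21, edgeR adjusted p = 0.0577), and passed in limma-voom at 0.50 (adjusted p = 0.0376).

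Genes with the most similar pattern were sought by Spearman's rho with the mean log2 CPM of the 5 members over 19 libraries, among 12264 genes. The 8 highest were Xaf1 (0.93), Rtp4 (0.93), Gbp3 (0.92), Clec1b (0.92), Psmb8 (0.90), Irf7 (0.90), Slfn8 (0.90) and Bend4 (0.90). Rtp4, Gbp3, Psmb8 and Slfn8 are known interferon-induced genes, Psmb8 encoding an immunoproteasome subunit and Gbp3 a guanylate-binding protein. Clec1b encodes a lectin receptor that liver macrophages express. Within young mice alone rho was 0.76 for Xaf1, 0.81 for Clec1b and 0.61 for Slfn8, and within old mice it was 0.97, 0.83 and 0.92. Without mouse 1187 the 8 values ran from 0.88 to 0.92. The mice share ages and cull days, so part of each value is the difference between groups.

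Markers of other liver cells moved with the members. In bulk RNA a higher share of a cell type and more RNA per cell cannot be told apart. The Kupffer cell and macrophage markers, which include Clec4f, Cd5l and C1qa, summed to 159 to 731 CPM in young and 96.8 to 4000 CPM in old mice, and 13 of 14 were higher in old mice by edgeR. On the second cull day their sums, like Ifit1, Ifit2 and Ifit3, did not overlap: 452 to 949 CPM in old and 159 to 343 CPM in young mice. On that day 10.8% of single genes tested were separated in this way. Without mouse 1187, 2 of the 14 passed as higher, where 12.4% of all genes tested did. The 14 macrophage markers then had a median log2 fold change of 0.83. Endothelial markers summed to 174 to 317 CPM in young and 184 to 623 CPM in old mice. Of these 12 markers 9 were higher, and 7 without mouse 1187. Stellate cell markers summed to 52.4 to 139 CPM in young and 144 to 514 CPM in old mice, without overlap. Such separation held for 0.978% of single genes tested. Of the 12 stellate cell markers 11 were higher, and 8 without mouse 1187. Of the monocyte, plasmacytoid dendritic cell, B cell and neutrophil markers 1 gene each was tested and each was higher. Of the T and NK cell markers 0 passed the filter. Cholangiocyte markers summed to 5.44 to 170.2 CPM in young and 7.93 to 63.5 CPM in old mice. Of 10 hepatocyte markers 2 were higher and 4 lower.

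An other-cell score, the mean log2 CPM of 39 tested macrophage, endothelial, stellate and B cell markers, ran from 2.46 to 4.08 in young and from 2.69 to 5.97 in old mice. Its Spearman's rho with the members' mean was 0.83 over 19 mice, 0.31 over the 10 young, 0.85 over the 9 old and 0.80 without mouse 1187. With this score as a covariate in edgeR the log2 fold changes were 0.024 for Ifit1, -0.16 for Ifit2, 0.19 for Ifit3, -0.054 for Ifit3b and 0.013 for Isg15 (adjusted p from 0.658 to 0.977). None of the 5 passed, where 6.46% of genes passed as higher, and 0 of 5 had an unadjusted p under 0.05. With the macrophage score alone they were 0.21, 0.22, 0.40, 0.19 and 0.23 in the same order (adjusted p from 0.243 to 0.522), where 9.23% of genes passed as higher, again with 0 of 5 at an unadjusted p under 0.05. DESeq2 and limma-voom were not run with a score. The score differs with age itself, so these fits cannot separate the 2, and the part of other cells in the age difference was not tested.

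**Figure D4:**
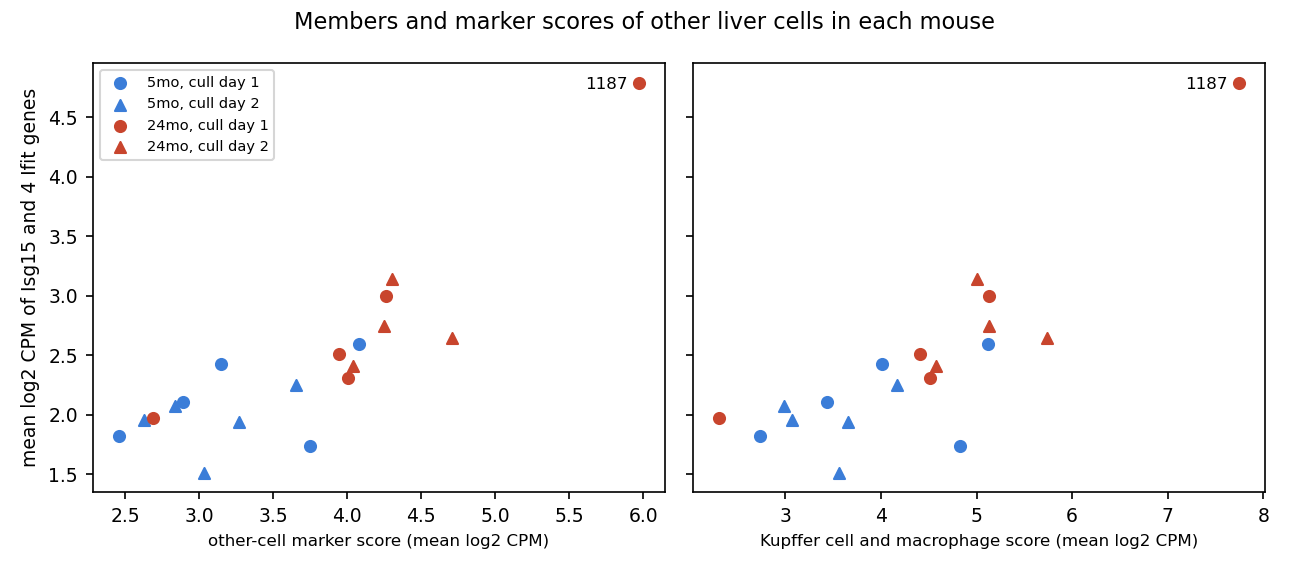
Mean log2 CPM of the 5 members in each mouse against the other-cell score (left) and the macrophage score (right), young blue and old red, circles for the first and triangles for the second cull day. The members rise with both scores over the 19 mice, and mouse 1187 lies highest on both axes.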

How the data were processed

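The authors deposited 1 table of estimated counts per gene, made with HOMER's analyzeRepeats.pl over exons of RefSeq transcripts for mm10, condensed to genes and left raw, per the file headers. STAR, HOMER, GRCm38 and mm10 are named in the submitters' processing notes without roles. The library was stranded and paired-end, per the labels' protocols, and the strand setting and the handling of reads with several matches are not given in the sources used here. Values were multiples of 0.5 and were rounded to whole counts for the tests, which had been planned for counts. Age was tested over all 19 libraries with edgeR 4.0.16 (R 4.3.3): quasi-likelihood, trimmed mean of M-values scaling, filterByExpr by age (minimum count 10), cull day as covariate, threshold 0.05. Alternatives used DESeq2 1.42.0, limma 3.58.1, other filters and scalings, single cull days and left-out libraries. No pair of libraries of an age repeated the same counts (smallest chi-square per degree of freedom 15.4). The edgeR fit was tested on simulated data. Python 3.11.15 with scipy 1.17.1 did the permutation tests.

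The members and lists were chosen with earlier results of these data known. Named genes were the members, their locus neighbours, the 3 smallest p-values of each list, and the 8 genes most like the members. Stat2, Ifnar1, Ifnb1, Ifng, Ifnk, Ifnz, Ifna2, Clec4f, Cd5l and C1qa were named after their values were seen.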

Additional observations from a re-analysis of the deposited data

Results flagged for a closer look

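In 10 groups of mice (5 genes, each in young and in old mice) a far sample was looked for. The rule asked for a gap to the nearest neighbour that was large against the range of the group. Chance meets it in about 1 of 20 groups if values are normally distributed, which was not checked for these CPM. Old mouse 1187 met it for all 5 genes, at 22.8 CPM for Ifit1, 27.8 CPM for Ifit2, 53.2 CPM for Ifit3, 15.8 CPM for Ifit3b and 30.1 CPM for Isg15. These 5 values come from 1 library and are not independent of each other. Young mouse 1184 met it for Ifit2, at 4.92 CPM against 2.74 CPM at most in the other young mice.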

How the results depend on the processing

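The 5 log2 fold changes kept their direction and passed the adjusted threshold under DESeq2, limma-voom, both other scalings, both other filters, no cull day term, unrounded counts, and summed Ifit3 and Ifit3b counts. Exact permutation with prior counts of 0.5, 2 or 5 gave the same directions, with unadjusted p from 0.00180 to 0.0116. On the first cull day alone 450 genes and 0 members passed, with 0.84 (Ifit1), 1.61 (Ifit2), 1.26 (Ifit3), 1.14 (Ifit3b) and 0.99 (Isg15). On the second, 2388 genes passed, and Isg15 had 0.59 and did not. Fewer samples entered these fits. Without young mice 1184, 1186 and 1188, 2 members passed (14.6% of genes were higher), and Ifit1 (0.73), Ifit3b (0.96) and Isg15 (0.86) did not. With the other-cell score, 1553 genes and 0 members passed: 0.024 (Ifit1), -0.16 (Ifit2), 0.19 (Ifit3), -0.054 (Ifit3b), 0.013 (Isg15), -0.53 (Irf8), -0.021 (Irf1), -0.13 (Tmem173) and -0.087 (Clec1b). With the macrophage score, 2216 genes and 0 members passed: 0.21 (Ifit1), 0.22 (Ifit2), 0.40 (Ifit3), 0.19 (Ifit3b), 0.23 (Isg15) and -0.13 (Irf8). The cause was not tested.

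Leaving out 1 mouse at a time gave 3 to 5 members past the threshold, where 12.4% to 16.9% of genes were higher. Log2 fold changes ran from 0.43 to 0.86 for Ifit1, 0.69 to 1.53 for Ifit2, 0.69 to 1.21 for Ifit3, 0.53 to 1.06 for Ifit3b and 0.46 to 0.89 for Isg15. Each lowest value came without old mouse 1187. The interaction passed for 0 genes in edgeR (799 at an unadjusted p under 0.05), for 0 to 1 with a mouse left out and for 349 in limma-voom. For the members it was -0.16, -0.55, -0.34, -0.40 and -0.41 for Ifit1, Ifit2, Ifit3, Ifit3b and Isg15 in edgeR, and 0.51, 0.59, 0.52, 0.40 and 0.44 in limma-voom. With a mouse left out it ran from -0.34 to 0.49, -0.88 to 0.75, -0.54 to 0.49, -0.61 to 0.42 and -0.60 to 0.25. No paired analysis was possible because the library numbers are not shared between ages.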

Other observations

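Both ages held a mouse whose members and macrophage markers can be set side by side, chosen after their values were seen. Old mouse 1183 had the lowest macrophage marker sum of all 19 mice, 96.8 CPM, and the lowest Ifit1 (4.47 CPM), Ifit2 (1.87 CPM), Ifit3b (2.21 CPM) and Isg15 (5.40 CPM) of the old mice. Young mouse 1186 had a macrophage marker sum of 617 CPM, second among young mice, with 2.98 CPM of Ifit1 and 5.38 CPM of Ifit3, the lowest and the second lowest of the young.

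Mouse 1187 also differed in markers of blood cells. Its T and NK cell markers summed to 34.2 CPM, against 2.95 CPM at most in the other old mice. Its monocyte markers summed to 47.0 CPM against 8.76 CPM, and its B cell markers to 18.4 CPM against 4.69 CPM.

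The response element core GAAANNGAAA was also counted upstream of the other listed genes. Of 22 other antiviral interferon-induced genes with a window, 8 hold it (36.4%). Of 20 interferon ligand genes 11 do (55.0%), of 10 receptor and ISGF3 genes 1, of 6 other interferon regulatory factors 1, of 6 negative regulators 1, of 6 sensors and adaptors 0, of 4 ISG15 conjugation genes 0, and both of the other Ifit-like genes. Among tested genes with a window the share was 3.30% (314 of 9510).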
